A study of Mus musculus with 26 samples.

Results

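The 10 genes described here encode transcription factors of the myeloid lineage: Spi1, Cebpa, Cebpb, Cebpe, Gfi1, Irf8, Myb, Ikzf1, Ikzf2 and Myc. They were chosen by symbol, as the genes of 122 probe sets of the array that carry a member as their only gene symbol, out of 18341 genes tested. Spi1, which encodes PU.1, is annotated on the platform under its older symbol Sfpi1. The number of probe sets per gene ran from 4 for Cebpa, Cebpe and Myc to 28 for Myb.

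RNA of 26 mouse samples was hybridised to Affymetrix Mouse Exon 1.0 ST arrays, a design that interrogates most exons of a gene with probe sets of their own. The labels describe the material only as mouse ES and EB cells, terms usually read as embryonic stem cells and the embryoid bodies into which they differentiate, and give a strain, with 14 arrays labelled 129S2/SvPas (titles ES1 to ES14) and 12 labelled C57BL/6 (ES15 to ES26). No treatment, genotype, time, age or sex of the samples is given in the sources used here, and every sample was amplified in 2 rounds before hybridisation. The titles fall into consecutive runs that are used below for description: ES1 to ES12, ES13 and ES14, ES15 to ES20, ES21 to ES24, and ES25 and ES26.

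Myeloid cells arise from blood progenitors under a small set of transcription factors that act together and in part against each other. PU.1 is required for both granulocytes and macrophages, C/EBP-alpha starts the granulocyte program, C/EBP-epsilon drives its late granule stage, and C/EBP-beta serves granulocyte production under demand and macrophage function. Gfi1, a repressor, favours neutrophils, whereas Irf8 favours monocytes and dendritic cells, and Myb, Ikaros (Ikzf1), Helios (Ikzf2) and Myc are linked to progenitor growth, lymphoid fate and proliferation.

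The samples did not carry the marker genes of ES cells alike, and the strain labels did not part them cleanly. Neutrophil marker genes averaged 11.36 to 12.57 (log2 signal) in ES1 to ES12, where 8 of 8 tested markers lay above every other array, while the same mean was 5.24 to 6.22 in the remaining 14 arrays. Pluripotency markers averaged 4.92 to 5.51 in ES1 to ES12 and 11.34 to 11.79 in ES21 to ES24. ES13 and ES14 carry the 129S2/SvPas label but not the myeloid genes of the other 12 arrays with that label: their monocyte and macrophage marker means lay between 4.99 and 5.01, against 8.66 to 10.01 in ES1 to ES12. Comparisons of strain labels are therefore also given without ES13 and ES14, by gene for the members and by counts for the gene lists. Each array averages over all cells of its sample, so fewer cells of a type and less RNA per cell cannot be told apart.

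For 6 of the 10 genes, RefSeq start sites on assembly GRCm38.p6 gave 9 promoter windows, each 300 bases long, from 250 before to 50 after the start. The sequences below are shown because they hold the core letters bound by members of this same group of factors, which are in capitals. The upstream of the Gfi1 windows holds a C/EBP match (TTGCNNAA), and the other Gfi1 window, not shown, holds no match. The Cebpa window holds a Myb match (CAACTG, here on the reverse strand). Both Irf8 windows hold a Gfi1 match (AAATCA, here on the reverse strand) and an Ikaros match (TGGGAA), and the downstream of the Ikzf1 windows holds Gfi1 letters on each strand.
Gfi1, chr5:107725756-107726055, minus strand: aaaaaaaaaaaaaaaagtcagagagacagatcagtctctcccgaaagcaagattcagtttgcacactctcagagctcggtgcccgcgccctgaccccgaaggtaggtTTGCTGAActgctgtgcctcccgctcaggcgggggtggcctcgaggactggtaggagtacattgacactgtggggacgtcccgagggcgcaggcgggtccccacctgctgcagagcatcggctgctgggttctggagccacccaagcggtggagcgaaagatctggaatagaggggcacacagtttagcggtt
Cebpa, chr7:35119043-35119342, plus strand: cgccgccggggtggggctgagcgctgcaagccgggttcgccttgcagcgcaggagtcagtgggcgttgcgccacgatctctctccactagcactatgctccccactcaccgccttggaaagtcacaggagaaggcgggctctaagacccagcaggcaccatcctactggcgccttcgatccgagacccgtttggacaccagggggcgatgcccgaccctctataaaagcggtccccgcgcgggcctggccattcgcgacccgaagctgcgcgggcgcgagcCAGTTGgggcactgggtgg
Irf8, chr8:120736108-120736407, plus strand: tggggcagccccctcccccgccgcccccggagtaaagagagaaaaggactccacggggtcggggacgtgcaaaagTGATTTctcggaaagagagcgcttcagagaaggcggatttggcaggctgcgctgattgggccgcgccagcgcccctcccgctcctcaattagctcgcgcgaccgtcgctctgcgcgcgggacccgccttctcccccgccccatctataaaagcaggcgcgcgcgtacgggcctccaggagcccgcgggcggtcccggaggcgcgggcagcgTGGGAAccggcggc
Irf8, chr8:120738389-120738688, plus strand: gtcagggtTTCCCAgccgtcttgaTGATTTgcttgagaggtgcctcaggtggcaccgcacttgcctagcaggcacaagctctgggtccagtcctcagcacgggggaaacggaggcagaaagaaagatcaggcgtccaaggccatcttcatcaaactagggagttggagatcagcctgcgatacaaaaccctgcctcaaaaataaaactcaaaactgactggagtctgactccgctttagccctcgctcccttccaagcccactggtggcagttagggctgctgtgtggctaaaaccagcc
Ikzf1, chr11:11689927-11690226, plus strand: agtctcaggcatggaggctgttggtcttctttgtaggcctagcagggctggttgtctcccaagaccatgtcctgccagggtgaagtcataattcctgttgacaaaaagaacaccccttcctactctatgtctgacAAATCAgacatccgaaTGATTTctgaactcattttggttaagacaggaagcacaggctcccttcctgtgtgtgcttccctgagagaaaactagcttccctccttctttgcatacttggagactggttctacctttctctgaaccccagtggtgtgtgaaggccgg
Counted from the start site, the C/EBP letters of Gfi1 begin at position -143 and the Myb letters of Cebpa at position 32. Of 32851 mouse promoter windows of the same length, read on both strands, 10.8% hold the C/EBP letters, 13.7% the Myb letters, 14.0% the Gfi1 letters and 25.6% the Ikaros letters. The PU.1 core GAGGAA is in 28.3% of all windows, the E-box CACGTG of Myc in 7.15%, the interferon-stimulated response element in 3.44% and the GATA core AGATAA in 11.2%. None of these last 4 is in any of the 9 windows. The 9 windows had 49 to 81.3% G and C, against a median of 52.7% over all windows. These are matches of letters and say nothing about binding.

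All of the factor genes except Myc were higher in the arrays labelled 129S2/SvPas. With limma on all 18341 genes, 9 of 10 members had an adjusted p below 0.05 as higher and 0 as lower, where 21.1% of all genes were called higher and 22.1% lower, 43.2% in all. Without ES13 and ES14 the same 9 members were called higher, beside 25.2% of all genes in each direction. The order of the differences ran from Myb (3.65 ± 0.36 log2 units, SE) through Ikzf1 (3.44 ± 0.52), Spi1 (3.04 ± 0.44), Gfi1 (2.52 ± 0.29), Cebpe (2.26 ± 0.32), Cebpb (2.15 ± 0.30), Cebpa (1.28 ± 0.18) and Irf8 (1.09 ± 0.27) to Ikzf2 (1.03 ± 0.41) and Myc (0.37 ± 0.23). Without ES13 and ES14 the differences were 4.06 for Myb, 3.94 for Ikzf1, 3.61 for Spi1, 2.90 for Gfi1, 2.69 for Cebpe, 2.51 for Cebpb, 1.49 for Cebpa, 1.34 for Irf8, 1.33 for Ikzf2 and 0.31 for Myc. The ranges of 1 SE around neighbours in this order overlap, except between Cebpb and Cebpa and between Ikzf2 and Myc. The order depends on the gene summary: with the mean of all probe sets Myb differed by 2.64, less than Spi1 (3.26), Cebpe (3.01), Gfi1 (3.00) and Ikzf1 (2.91). When arrays were centred on their medians, all genes together shifted to a median difference of 0.13, so differences of that size carry no direction.

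**Figure D1:**
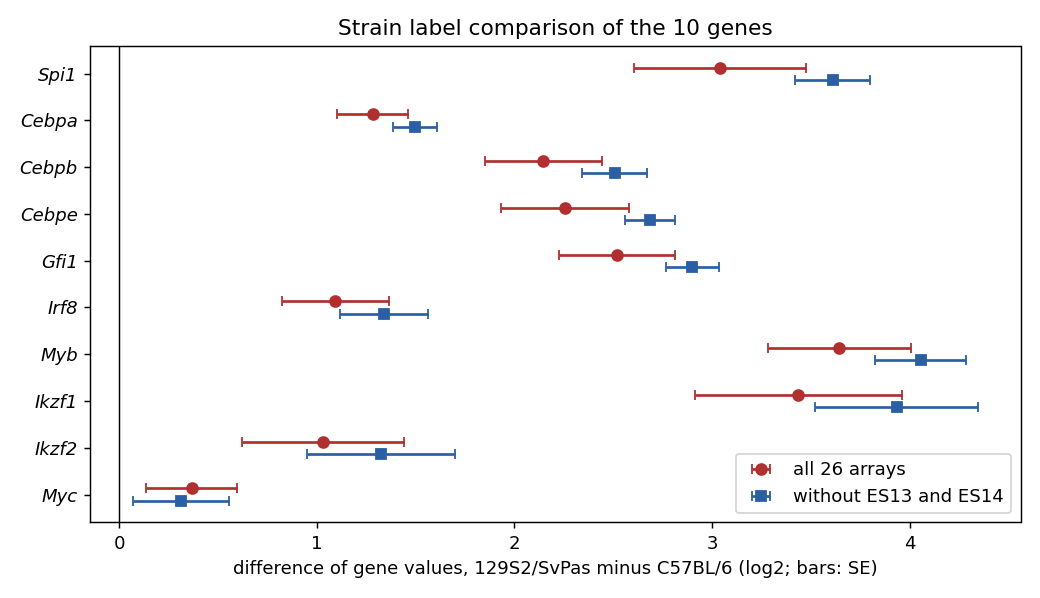
Difference of gene values between strain labels, 129S2/SvPas minus C57BL/6, in log2 units on the x axis for each of the 10 genes; points are limma estimates and bars their standard errors, with all 26 arrays (circles) and without ES13 and ES14 (squares). Leaving out ES13 and ES14 moved 9 genes to the right, and Myc stayed close to 0 in both.

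The strain difference rested on ES1 to ES12. In 7 members, Spi1, Cebpa, Cebpb, Cebpe, Gfi1, Myb and Ikzf1, all of these 12 arrays lay above all of the other 14, which held for 7.76% of all genes. No member had all 12 arrays below the others, as did 6.42% of all genes. Irf8, Ikzf2 and Myc overlapped, each in a different set of arrays.

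**Figure D2:**
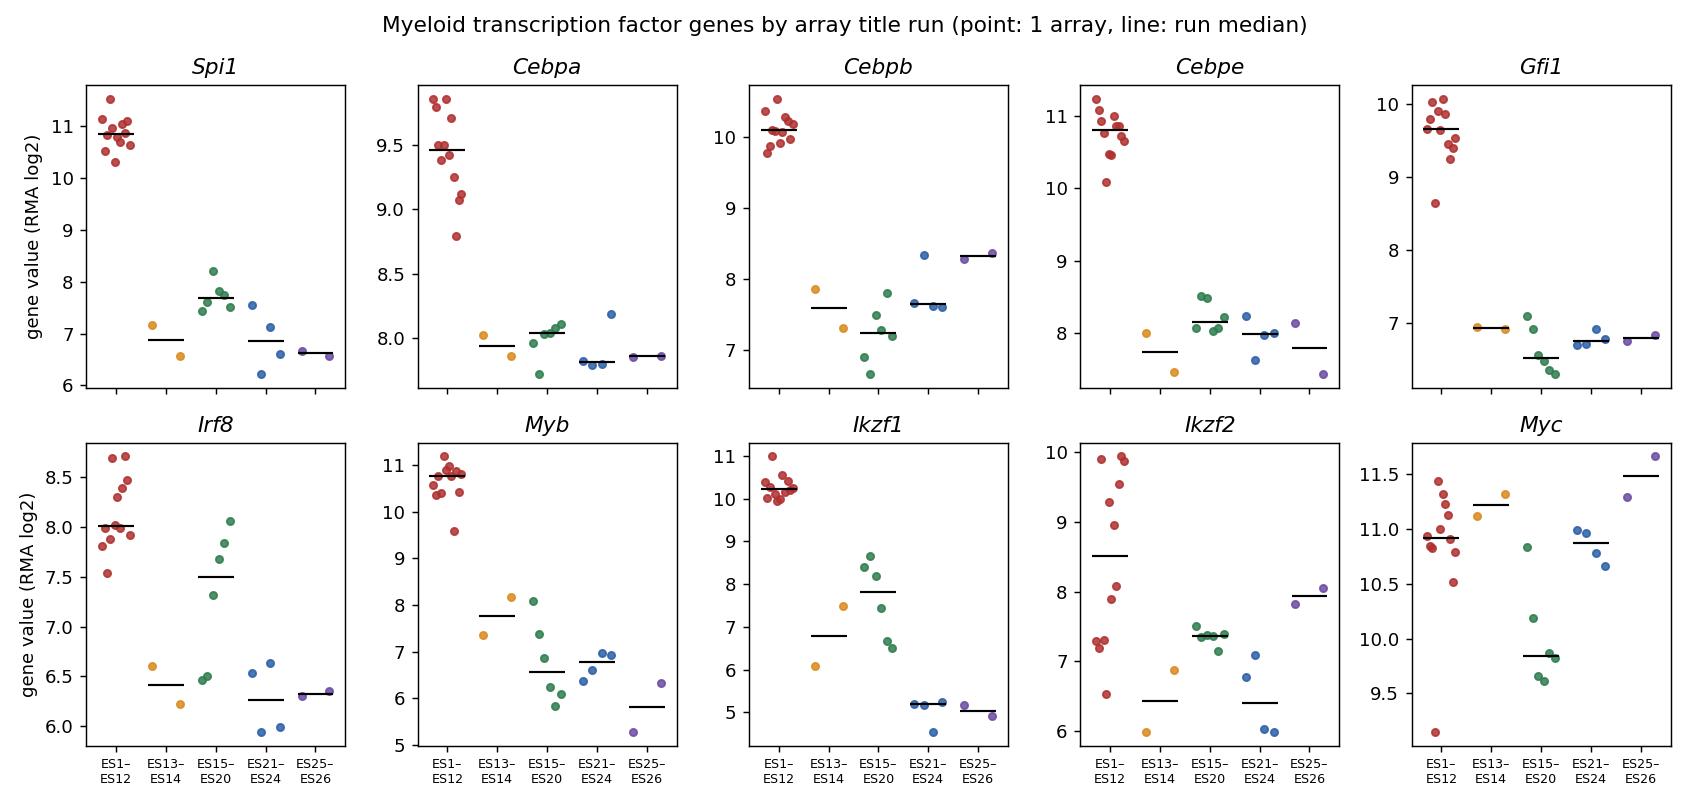
Gene value (RMA log2, y axis, own scale for each gene) of the 10 factor genes in every array, by title run on the x axis; a point is 1 array and a line the median of its run. ES1 to ES12 stand apart in 7 genes, whereas Irf8 reaches 8.06 in ES20, Ikzf2 spans 6.53 to 9.94 within ES1 to ES12, and Myc is lowest in ES4 at 9.15.

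The lowest value of Spi1 in ES1 to ES12 was 10.30, the median 10.85 and the highest 11.53, in ES4. It was 7.17 in ES13 and 6.57 in ES14. In ES15 to ES20 it lay between 7.44 and 8.21 (median 7.68), in ES21 to ES24 between 6.22 and 7.54 (median 6.87), and at 6.67 and 6.57 in ES25 and ES26. All of ES1 to ES12 lay above every other array, of which ES17 was the highest. ES15 to ES20 lay above ES13, ES14, ES25 and ES26, and overlapped ES21 to ES24 through ES21 alone, at 7.54. Spi1 averaged 10.30 ± 1.49 (SD, n = 14) in arrays labelled 129S2/SvPas and 7.26 ± 0.61 (SD, n = 12) in arrays labelled C57BL/6 (limma adjusted p = 3.43e-06). Without ES13 and ES14 the difference was 3.61.

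The 8 probe sets of Spi1 did not behave alike. Probe set 5613309, which enters the gene value, ranged only from 8.48 to 10.13 over all arrays, and 4335036 from 4.79 to 6.32. Probe set 4992279 had a lowest value of 10.54 and a highest of 11.49 over ES1 to ES12, against 3.04 in ES13 and 3.46 in ES14. In ES15 it was 5.21, and over ES16 to ES20 it ran from 6.84 to 8.02. It was 2.77 to 3.70 in ES21 to ES24, 3.77 in ES25 and 3.19 in ES26. Probe sets 4822844, 4786842 and 5304761 followed a like course, with 7.11, 7.33 and 6.68 in ES16. On these 4 probe sets ES16 to ES20 stood between ES1 to ES12 and all remaining arrays. All 8 Spi1 probe sets were higher in arrays labelled 129S2/SvPas when each of the 631748 probe sets was tested by itself, with differences from 0.44 to 5.11, where 14.2% of all probe sets were called higher and 14.6% lower.

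The C/EBP genes were each higher in ES1 to ES12 and differed in what was left elsewhere. Cebpa, the initiator of the granulocyte program, lay between 8.79 and 9.85 (median 9.46) in ES1 to ES12. ES13 had 8.02 and ES14 7.86, and all C57BL/6 arrays fell within 7.72 to 8.19. Its means were 9.22 ± 0.62 (SD, n = 14) in arrays labelled 129S2/SvPas and 7.94 ± 0.15 (SD, n = 12) in arrays labelled C57BL/6 (limma adjusted p = 2.92e-06). Probe set 4491082 showed a wider gap, with 9.06 to 10.67 in ES1 to ES12 and 4.49 to 7.41 in the others. On that probe set ES17 to ES20 ran from 7.06 to 7.41, above the remaining arrays outside ES1 to ES12. Summarised by the mean of its 4 probe sets, Cebpa differed by 2.10, and by their median, 2.05.

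Cebpb, the factor of emergency granulopoiesis and macrophages, lay between 9.78 and 10.54 (median 10.09) in ES1 to ES12. It was 7.86 in ES13 and 7.32 in ES14. Outside ES1 to ES12 its highest values were 8.37 in ES26, 8.33 in ES22 and 8.29 in ES25, and its lowest was 6.66, in ES16. The means were 9.75 ± 0.94 (SD, n = 14) in arrays labelled 129S2/SvPas and 7.60 ± 0.55 (SD, n = 12) in arrays labelled C57BL/6 (limma adjusted p = 2.07e-06). All 6 probe sets had ES1 to ES12 above every other array. For such counts, here and below, no share over all probe sets was computed, and probe sets of the same gene are not independent.

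Cebpe, the factor of the late granule stage, lay between 10.09 and 11.23 (median 10.80) in ES1 to ES12. It was 8.01 in ES13 and 7.46 in ES14, between 8.03 and 8.51 in ES15 to ES20, between 7.63 and 8.24 in ES21 to ES24, and 8.15 and 7.43 in ES25 and ES26. Its means were 10.32 ± 1.14 (SD, n = 14) in arrays labelled 129S2/SvPas and 8.07 ± 0.31 (SD, n = 12) in arrays labelled C57BL/6 (limma adjusted p = 3.39e-06). The values outside ES1 to ES12 are held up by probe set 5597851, which lay between 10.15 and 11.75 in all 26 arrays. The other 3 probe sets had ES1 to ES12 above every other array. Probe set 5086861 was 9.62 to 11.12 in ES1 to ES12 and 4.10 to 5.87 elsewhere. Probe set 5080740 was 7.40 to 9.15 in ES1 to ES12 and 2.42 to 4.29 elsewhere. Summarised by the median of its 4 probe sets, Cebpe differed by 3.90, against 2.26 with the brighter part.

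Gfi1 and Irf8, the neutrophil and monocyte sides of the granulocyte and monocyte decision, had different patterns. Gfi1 lay between 8.64 and 10.07 (median 9.65) in ES1 to ES12, with the lowest value in ES4 and the next lowest, 9.24, in ES10. ES13 had 6.94 and ES14 6.92, and under the C57BL/6 label the values ran from 6.30 to 7.09. Its means were 9.22 ± 1.04 (SD, n = 14) in arrays labelled 129S2/SvPas and 6.70 ± 0.24 (SD, n = 12) in arrays labelled C57BL/6 (limma adjusted p = 2.77e-07). All 19 Gfi1 probe sets were called higher, beside 14.2% of all probe sets, and in 17 of them ES1 to ES12 lay above every other array.

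Irf8 lay between 7.54 and 8.71 (median 8.01) in ES1 to ES12. It was 6.60 in ES13 and 6.23 in ES14. In ES15 to ES20 the values were 6.46, 6.50, 7.31, 7.68, 7.84 and 8.06. ES21 to ES24 lay between 5.94 and 6.64, and ES25 and ES26 at 6.30 and 6.35. Only 5 of the 12 arrays ES1 to ES12 exceeded the highest other array, ES20, so ES18 to ES20 lay within the range of ES1 to ES12. The Irf8 means were 7.90 ± 0.72 (SD, n = 14) in arrays labelled 129S2/SvPas and 6.80 ± 0.73 (SD, n = 12) in arrays labelled C57BL/6 (limma adjusted p = 0.00184). Of its 11 probe sets 8 were called higher, beside 14.2% of all probe sets, and in 0 did ES1 to ES12 lie above every other array. Probe set 4872465 stayed between 11.05 and 11.89 in all arrays.

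Myb, required for the growth of blood progenitors, lay between 9.60 (ES9) and 11.19 (ES5) in ES1 to ES12, with a median of 10.77. Among the other arrays it was highest in ES14, at 8.17, and in ES15, at 8.08, and it was 7.35 in ES13. In the rest of the run from ES16 to ES20 it was 7.38, 6.87, 6.25, 5.84 and 6.08. ES21 to ES24 lay between 6.37 and 6.97, and ES25 and ES26 had 5.27 and 6.33. Myb averaged 10.23 ± 1.12 (SD, n = 14) in arrays labelled 129S2/SvPas and 6.58 ± 0.74 (SD, n = 12) in arrays labelled C57BL/6 (limma adjusted p = 3.82e-08), the smallest adjusted p among the 10 genes. Of its 28 probe sets 27 were called higher, beside 14.2% of all probe sets.

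Ikzf1, encoding Ikaros, lay between 9.96 and 10.99 (median 10.22) in ES1 to ES12, with the highest value in ES4. It was 6.08 in ES13 and 7.49 in ES14. In ES15 to ES20 it was 8.39, 8.65, 8.18, 7.45, 6.67 and 6.50, all above ES21 to ES24, which lay between 4.54 and 5.24, and above ES25 and ES26 at 5.17 and 4.91. Its means were 9.78 ± 1.32 (SD, n = 14) in arrays labelled 129S2/SvPas and 6.34 ± 1.50 (SD, n = 12) in arrays labelled C57BL/6 (limma adjusted p = 7.77e-06), the widest spread among C57BL/6 arrays in the 10 genes.

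Ikzf2, encoding Helios, was the member with the widest range within ES1 to ES12. The 12 values from ES1 to ES12 were 7.29, 7.20, 9.90, 7.31, 6.53, 9.29, 7.90, 8.95, 8.08, 9.55, 9.94 and 9.87. ES3, ES6, ES8, ES10, ES11 and ES12 were high and ES1, ES2, ES4 and ES5 low, within the range of the other runs. Of these 12 arrays 7 exceeded the highest other array, ES26 at 8.05. ES13 and ES14 had 5.99 and 6.88, ES15 to ES20 lay between 7.15 and 7.51, ES21 to ES24 between 5.99 and 7.09, and ES25 had 7.83. The means were 8.19 ± 1.37 (SD, n = 14) in arrays labelled 129S2/SvPas and 7.16 ± 0.63 (SD, n = 12) in arrays labelled C57BL/6 (limma adjusted p = 0.0425), and without ES13 and ES14 the difference was 1.33 (limma adjusted p = 0.00424). The call does not hold when any of ES3, ES6 or ES8 to ES12 is left out (adjusted p up to 0.0747), nor without ES16, ES19 or any of ES21 to ES24 (adjusted p up to 0.0754).

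The spread of Ikzf2 was shared by nearly all of its probe sets. The 9 probe sets that do not enter the gene value had correlations with it over ES1 to ES12 from 0.83 to 1.00 (median 0.96), a description over 12 arrays of probe sets of the same gene. For Myc the 2 probe sets outside the gene value gave 0.95 and 0.97, and for Irf8 the 5 outside it a median of 0.88. For Myb the 14 outside it had a median of 0.29 over ES1 to ES12 and 0.75 over all 26 arrays. These 14 were dim in part, with means from 2.13 to 7.31. Over ES1 to ES12 the medians were 0.44 for Cebpb, 0.69 for Gfi1, 0.77 for Cebpe, 0.78 for Ikzf1, 0.90 for Spi1 and 0.91 for Cebpa. The genes most like Ikzf2 within ES1 to ES12, looked up after the spread was seen, were the tight junction gene Tjp1 (r = 0.97), the ubiquitin ligase gene Rnf180 (0.97) and the copine gene Cpne7 (0.96). The genes most opposed were the GTPase-activating protein gene Asap1 (-0.92) and the thymic protease gene Prss16 (-0.92).

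**Figure D3:**
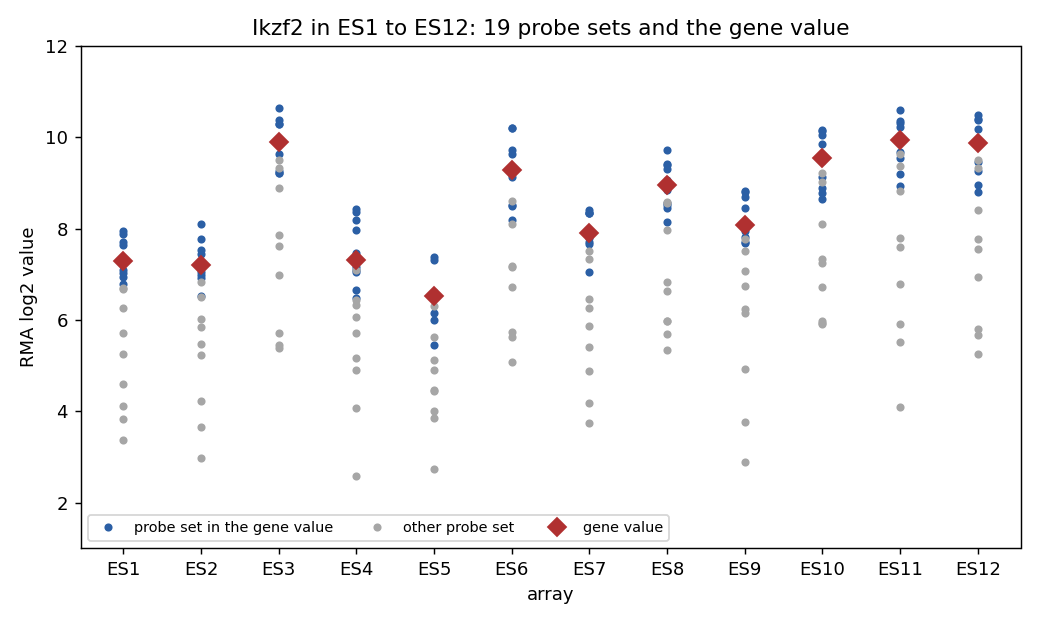
Ikzf2 in the arrays ES1 to ES12 (x axis), as RMA log2 values (y axis): the gene value (diamonds), the 10 probe sets that enter it (blue) and the 9 others (grey). The probe sets move together from array to array, and the gene value runs from 6.53 in ES5 to 9.94 in ES11.

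Myc, a driver of growth and ribosome production, did not follow the myeloid pattern. It lay between 9.15 (ES4) and 11.44 (ES5) in ES1 to ES12, with a median of 10.92, and was 11.12 in ES13 and 11.32 in ES14. In ES15 to ES20 it was 10.83, 10.18, 9.66, 9.62, 9.87 and 9.82. It lay between 10.66 and 10.99 in ES21 to ES24 and was highest of all in ES26, at 11.66, with 11.30 in ES25. The means were 10.89 ± 0.56 (SD, n = 14) in arrays labelled 129S2/SvPas and 10.53 ± 0.68 (SD, n = 12) in arrays labelled C57BL/6 (limma adjusted p = 0.215). The low values were those of ES4 and of ES16 to ES20, under both labels. Without ES4 the difference was 0.50 (limma adjusted p = 0.0408), so that 1 array decided this call. None of the 4 Myc probe sets was called higher or lower.

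Some members also separated the runs outside ES1 to ES12. Against ES21 to ES24, the run with the pluripotency markers, both ES13 and ES14 were higher in Myb, Ikzf1 and Myc, which held for 11.4% of all genes, and 0 members were lower in both, as were 20.3% of all genes. ES15 to ES20 were all higher in Ikzf1 and Ikzf2 (11.8% of all genes), and 0 members were lower in all of them (12.7%). ES25 and ES26 were both higher in Ikzf2 and Myc (18% of all genes) and both lower in Myb (16.1%). With 10 genes, nothing is read from counts this small.

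Within ES15 to ES20 the members differed in which arrays were high. The arrays with the lowest Irf8, ES15 and ES16, had the highest Myb, Gfi1 and Myc and the lowest Cebpb, at 6.91 and 6.66, while Cebpb lay between 7.20 and 7.81 in ES17 to ES20. Gfi1 was 7.09 in ES15, 6.91 in ES16 and between 6.30 and 6.56 in ES17 to ES20. The mean of 19 PU.1 target genes was 5.70 in ES15, 6.68 in ES16, 7.57 in ES17, 7.70 in ES18, 7.98 in ES19 and 8.13 in ES20. In the other runs outside ES1 to ES12 it lay between 5.16 and 5.60. The mean of 16 monocyte and macrophage genes was 5.45, 6.23, 7.18, 7.66, 7.96 and 8.23 in the same 6 arrays, the same order of arrays as for Irf8. This list and the PU.1 target list share Csf1r, Cd14, Cd68, Msr1, Fcgr1 and Lyz2, so their means are not independent. The mean of the 13 secondary and tertiary granule genes moved less, between 5.45 and 6.55 in this run against 9.91 to 11.91 in ES1 to ES12. Genes of other cell types also differed in this run: erythroid genes averaged 11.69 in ES15 and 10.08 in ES20, and fibroblast genes 8.41 in ES15 and 10.46 in ES20. The part of these cell types in the members' values was not tested.

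**Figure D4:**
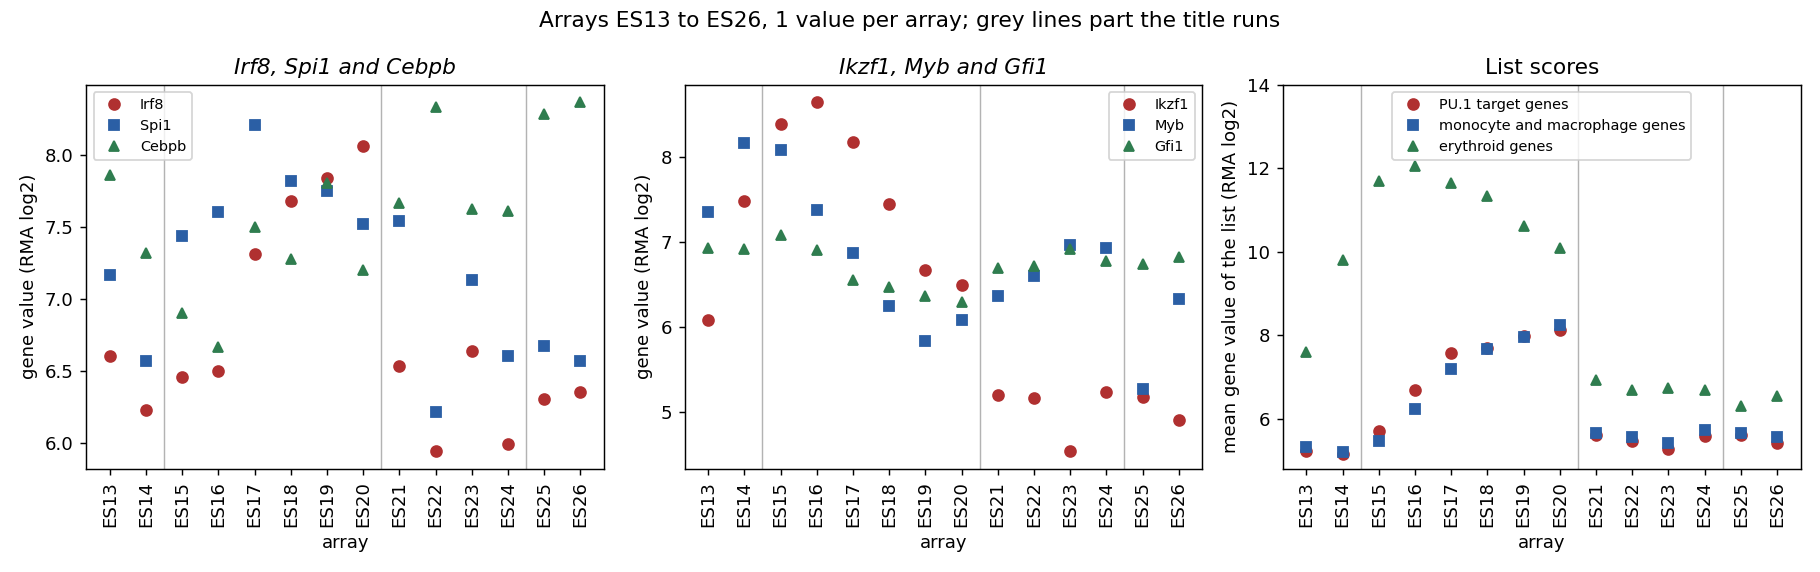
Arrays ES13 to ES26 on the x axis, with gene values (RMA log2) of Irf8, Spi1 and Cebpb on the left, of Ikzf1, Myb and Gfi1 in the middle, and means of 3 gene lists on the right; a point is 1 array and grey lines part the title runs. In ES15 to ES20, Irf8 (6.46 to 8.06) and the PU.1 target mean (5.70 to 8.13) are lowest in ES15, where Ikzf1 (8.39) and Myb (8.08) are high.

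Within ES1 to ES12 the gene profiles were close, with correlations between arrays from 0.95 to 0.99, and ES4 stood out among the members. It had the highest Spi1 and Ikzf1 and the lowest Gfi1 and Myc of the 12 arrays, and its mean of 19 Myc target genes, 10.62, was also the lowest. Of 75 relations among the members and with 3 granule and monocyte scores over these 12 arrays, 0 passed after Benjamini-Hochberg adjustment (lowest adjusted p = 0.161 for r and 0.129 for rho, permutation tests). An unadjusted permutation p below 0.05 was reached by 12 relations with Pearson's r and 8 with Spearman's rho. Myb and the primary granule mean had r = 0.75 and rho = 0.82 (permutation p = 0.00269 and 0.00172, adjusted p = 0.161 and 0.129), and r = 0.61 without ES5 and ES9. Gfi1 and Myc had r = 0.83 and rho = 0.60 (permutation p = 0.00498 and 0.0427, adjusted p = 0.161 and 0.390). Without ES4 and ES7 their r was 0.40, so this relation rests on those arrays. Cebpe and the secondary granule mean had r = 0.72 and rho = 0.52 (permutation p = 0.00838 and 0.0882, adjusted p = 0.161 and 0.390), and r = 0.56 without ES1 and ES5. Negative relations of like size also did not pass. Cebpa and the monocyte mean had r = -0.72 and rho = -0.68 (permutation test, adjusted p = 0.161 and 0.307), and r = -0.60 without ES1 and ES10. Cebpe and the primary granule mean had r = -0.69 and rho = -0.68 (permutation test, adjusted p = 0.185 and 0.307), and r = -0.82 without ES1 and ES5.

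Single probe sets departed from their gene beyond 1 log2 unit in 3 members. Each probe set was tested after subtracting the value of its gene in the same array, over 156023 probe sets bright enough to be tested, of which 1029 (0.66%) passed with limma at a minimum difference of 1. Of 103 member probe sets tested 8 passed. With no minimum difference 58 of the 103 passed, beside 23.3% of all tested. In Cebpe, probe set 5597851 departed by -2.42 ± 0.33 (SE), probe set 5086861 by 2.42 ± 0.33 (both limma adjusted p = 0.0234) and probe set 5080740 by 2.12 ± 0.25 (limma adjusted p = 0.0150). The first 2 of these make up the gene value of Cebpe, so their departures are equal and opposite by construction. In Gfi1, probe sets 5611514 (2.56 ± 0.25), 5343308 (2.90 ± 0.41) and 4333128 (1.83 ± 0.19) moved more than the gene, with adjusted p of 0.000909, 0.0126 and 0.0157. In Myb, probe sets 4710476 (-3.91 ± 0.40, limma adjusted p = 0.000149) and 5239771 (-2.50 ± 0.35, limma adjusted p = 0.0231) moved less than the gene.

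The flat Myb probe set 4710476 lay between 7.59 and 8.83 in all arrays, while 5425375 ran from 10.96 to 12.15 in ES1 to ES12 and from 5.00 to 9.16 elsewhere. The largest departures of the other members did not pass in this test. They were -2.60 in Spi1 (probe set 4335036, limma adjusted p = 0.0588), 2.00 in Cebpa (probe set 4491082, adjusted p = 0.871), -1.35 in Cebpb (probe set 5086416, adjusted p = 1), -2.09 in Ikzf1 (probe set 5302285, adjusted p = 0.224) and 1.25 in Irf8 (probe set 5405411, adjusted p = 1). In Ikzf2 and Myc no departure exceeded 0.51 and 0.20. Without ES13 and ES14, 19 member probe sets passed, beside 2.22% of all tested, and the flat Spi1 probe set 5613309 was among them (-2.94, limma adjusted p = 2.21e-06). The position of these probe sets in their genes was not analysed here.

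**Figure D5:**
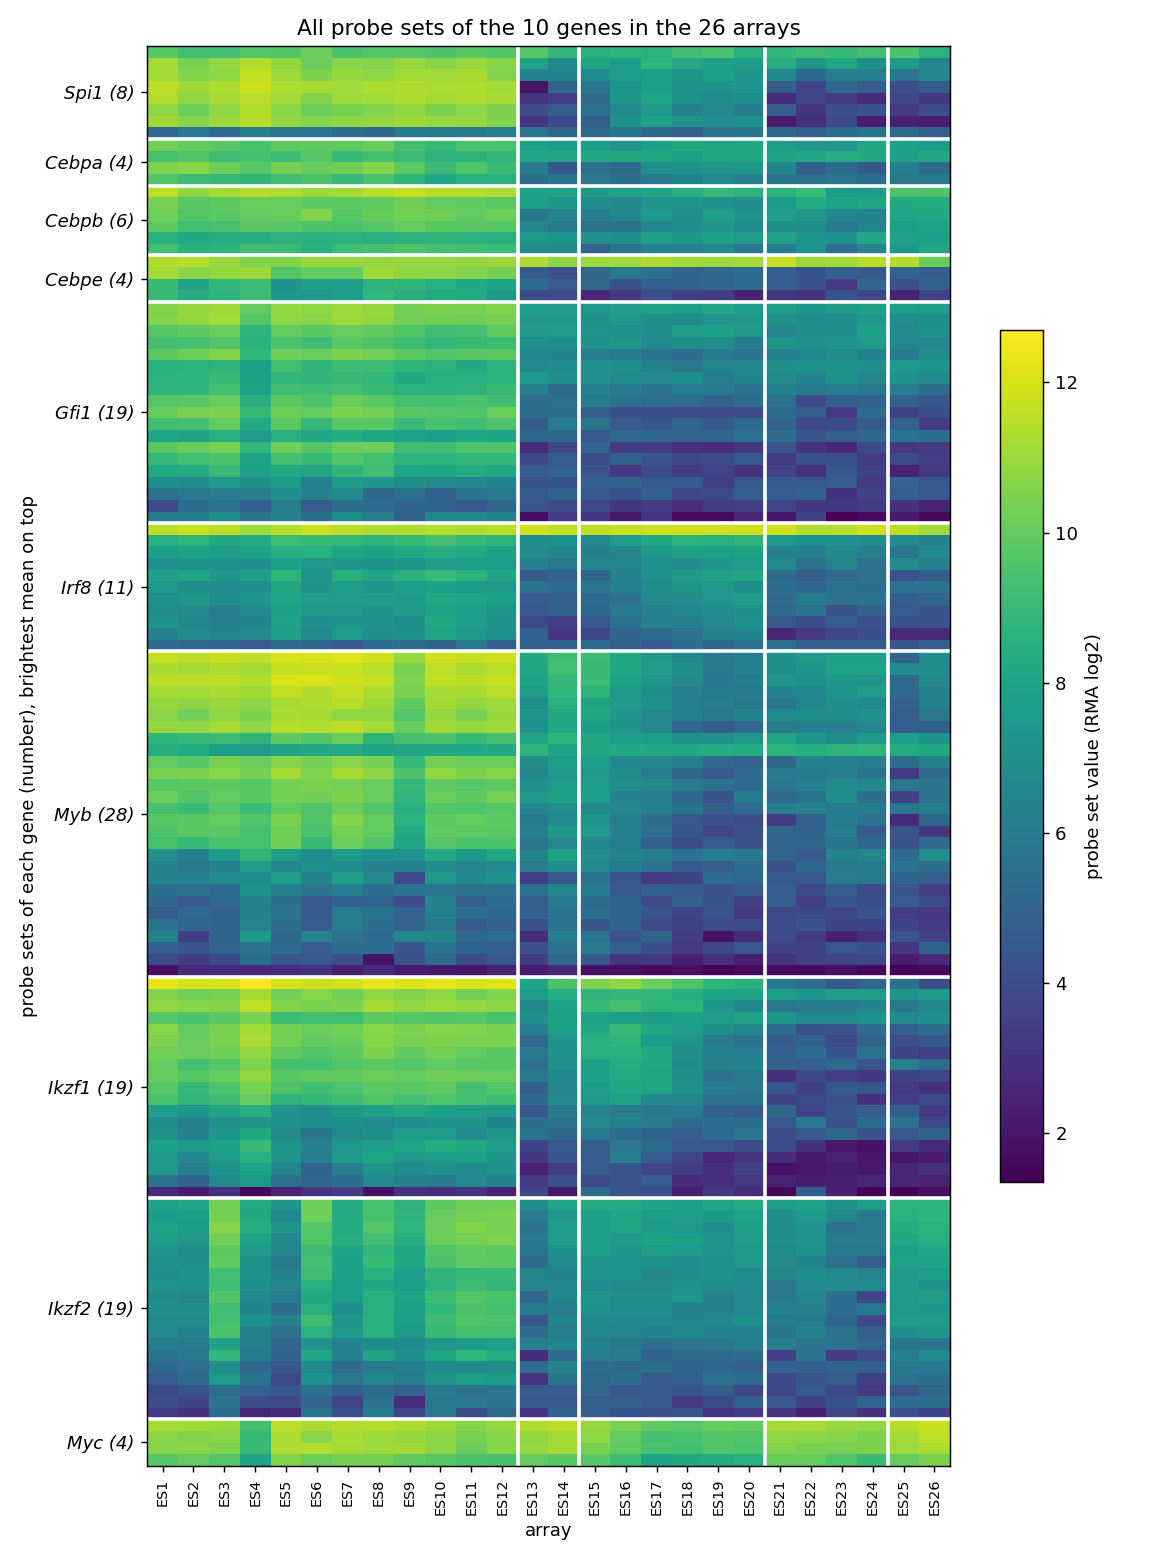
RMA log2 value (colour) of all 122 probe sets of the 10 genes (rows, brightest mean on top within each gene) in the 26 arrays (columns); white lines part genes and title runs. Flat rows stand in Spi1, Cebpe, Irf8 and Myb. The rows of Myc are lower in ES16 to ES20 than in ES13 and ES14, and those of Ikzf2 change from array to array within ES1 to ES12.

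Relatives of the members moved in part with them, and their counts stand beside 21.1% of all genes called higher and 22.1% lower. Of 9 tested ETS factors beside Spi1, 4 were higher in arrays labelled 129S2/SvPas and 0 lower. These were Fli1 (3.68 ± 0.59, SE) and Erg (2.45 ± 0.46), which act in blood and endothelium, Etv6 (1.25 ± 0.17), needed by blood stem cells, and Elf1 (1.07 ± 0.29). Fli1 was 11.05 to 11.57 in ES1 to ES12, 8.63 and 9.49 in ES13 and ES14, 8.62 to 10.04 in ES15 to ES20 and 4.89 to 5.65 in ES21 to ES26. Of 3 tested C/EBP relatives Cebpd was higher (2.02 ± 0.31), and Cebpg and Ddit3 did not pass. In that list 2 genes were higher without ES10, ES13 or ES14 alone, and all 3 without both ES13 and ES14. Of 7 IRF genes 5 were higher and 0 lower, among them the interferon regulators Irf7 (1.74 ± 0.27), Irf4 (1.67 ± 0.33), Irf5 (1.10 ± 0.33) and Irf2 (0.80 ± 0.27). Among 3 further Ikaros family genes and Gfi1b, Ikzf5 alone passed (0.34 ± 0.13). No gene of that list passed when ES8, ES18, ES19 or ES20 was left out, and 2 passed without ES14. Gfi1b, the erythroid and megakaryocyte paralog of Gfi1, was 7.95 to 8.96 in ES1 to ES12 and 7.78 to 9.67 in ES15 to ES20. Of 12 Myc network genes and Myb paralogs 3 were higher and 4 lower, with the Myc paralogs Mycn (-1.46 ± 0.36) and Mycl (-1.14 ± 0.27) and the Myb paralog Mybl1 (-1.25 ± 0.24) lower and the Myc antagonist Mxi1 higher (0.93 ± 0.21). Both counts of that list lie near the shares of all genes. Without ES13 and ES14, higher calls numbered 5 of 9 ETS factors, 6 of 7 IRF genes, 2 of the 4 Ikaros family genes and Gfi1b, and 3 of the 12 Myc network genes, of which 4 were again lower. Of the ETS factors 1 was lower without ES24.

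Regulators of neighbouring lineages were called in both directions, beside 21.1% of all genes called higher and 22.1% lower. The counts of the erythroid and megakaryocyte list lay near both shares. The lists hold 9 to 16 tested genes, so their shares are rough. Of 16 other myeloid and monocyte regulators 6 were higher and 3 lower, led by Tfec (5.04 ± 0.72), a relative of Mitf expressed in macrophages, Hhex (3.12 ± 0.30) and Cebpd, with the macrophage factor Maf lower (-1.49 ± 0.26). Of 11 stem and progenitor regulators 4 were higher and 3 lower. Lmo2 (2.73 ± 0.54), Lyl1 (2.48 ± 0.43) and Gata2 (1.35 ± 0.24) were higher and the homeobox gene Meis1 lower (-2.94 ± 0.37). Lmo2, a cofactor of early blood formation, was 10.37 to 11.58 in ES1 to ES12 and 10.49 and 10.44 in ES13 and ES14, within the range of ES1 to ES12. Of 9 erythroid and megakaryocyte regulators 2 were higher (Lmo2 and Nfe2, 2.69 ± 0.59) and 2 lower (Klf1, -1.27 ± 0.48, and Ldb1, -0.37 ± 0.10). Of 12 lymphoid regulators 1 was higher and 7 lower, with Tcf3 (-2.76 ± 0.38), Id3 (-2.52 ± 0.32), Gata3 (-2.10 ± 0.40) and Ebf1 (-1.98 ± 0.14) in front. The erythroid and megakaryocyte regulators had 1 lower call when ES15, ES16, ES17 or ES18 was left out. Without both ES13 and ES14 the higher and lower counts were 8 and 4 for the other myeloid, 4 and 3 for the stem and progenitor, 2 and 3 for the erythroid and megakaryocyte, and 1 and 8 for the lymphoid regulators. They stand beside 25.2% of all genes in each direction.

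Genes known as targets of the members differed by factor. All 19 tested PU.1 target genes were higher in arrays labelled 129S2/SvPas, with a median difference of 3.86 against -0.0015 over all genes tested. Of all genes tested, 21.1% were called higher and 22.1% lower. Lysozyme Lyz2 (5.38 ± 0.98, SE), the NADPH oxidase subunit Cybb (4.99 ± 0.87), the leukocyte phosphatase Ptprc (4.61 ± 0.79) and the integrin Itgam (4.59 ± 0.76) led the list. Of 19 Myc target genes 1 was higher, Ccnd2 (1.15 ± 0.22), and 5 lower, including Tfrc (-0.73 ± 0.21), Cad (-0.60 ± 0.24) and Cdk4 (-0.50 ± 0.09), with a list median of -0.12. Of 12 Myb target genes 3 were higher, Mpo (5.47 ± 0.69), Cdk6 (1.92 ± 0.47) and Ada (1.25 ± 0.32), and 1 lower, Gata3, with a list median of 0.24. The higher count of Myb targets and the lower count of Myc targets are near the shares of all genes. The Myb target list had 5 higher without ES4 and 2 lower without ES5. Of the Myc target genes 2 were higher without ES14. Without both ES13 and ES14, all 19 PU.1 target genes were again higher, 2 Myc target genes were higher and 9 lower, and 4 Myb target genes were higher and 1 lower. In that setting 25.2% of all genes were called in each direction. The lists overlap with each other, since Mpo is also a primary granule gene and Cybb and Itgam are also secondary granule genes, and Myc itself is in the Myb list. The PU.1 target list also shares with the monocyte and macrophage list the genes named above for ES15 to ES20, Lyz2 among them.

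Granule, monocyte and mast cell genes were higher beside the members, and most lymphocyte genes did not pass. The counts stand beside 21.1% of all genes called higher and 22.1% lower. The higher count of the lymphocyte list lies near that share. Of 7 primary granule genes 6 were higher and 0 lower, led by Ms4a3 (7.08 ± 0.78), cathepsin G Ctsg (5.83 ± 0.70), Mpo and proteinase 3 Prtn3 (4.65 ± 0.51). Of 13 secondary and tertiary granule genes 12 were higher and 0 lower, with Chil3 (8.19 ± 0.97), Mmp8 (6.96 ± 0.85), Ngp (6.81 ± 0.79) and Lcn2 (6.05 ± 0.70) in front. Of 16 monocyte and macrophage genes 14 were higher and 1 lower, among them Lyz2, Mpeg1 (4.16 ± 0.95), Adgre1 (3.98 ± 0.86) and Ctss (3.69 ± 0.67). Of 14 mast cell, basophil and eosinophil genes 13 were higher and 0 lower, with Cpa3 (6.77 ± 0.81), Hdc (5.54 ± 0.75), Mcpt8 (5.03 ± 0.66) and Prg2 (3.50 ± 0.70). Of 14 lymphocyte genes 4 were higher, Nkg7 (3.94 ± 0.53), Cd79b (1.00 ± 0.24), Zap70 (0.32 ± 0.10) and Cd3d (0.23 ± 0.09), and 0 lower. Lymphocyte markers averaged 4.72 to 5.35 in ES1 to ES12 and 4.53 to 5.36 elsewhere, while mast cell, basophil and eosinophil markers averaged 7.40 to 10.59 in ES1 to ES12 and 4.51 to 4.82 elsewhere. With ES13 and ES14 left out, higher calls numbered 7 of 7 primary granule, 12 of 13 secondary granule, 14 of 16 monocyte, 13 of 14 mast cell and 4 of 14 lymphocyte genes. In that setting 25.2% of all genes were called higher. Leaving out ES21, ES23, ES25 or ES26 gave 2 lower monocyte genes, and leaving out ES24 or ES26 gave 1 lower lymphocyte gene. The part of each cell type in the members' differences was not tested.

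Lists of other cell types were lower, beside 22.1% of all genes called lower and 21.1% higher. All 7 tested erythroid genes were lower, including the embryonic globins Hbb-y (-3.38 ± 0.98), Hbb-bh1 (-3.35 ± 1.21) and Hba-x (-2.67 ± 0.75) and the haem enzyme Alas2 (-2.41 ± 0.76). Among arrays labelled C57BL/6 only ES15 to ES20 had a high mean of these 7 genes, 10.08 to 12.05. The mean was 6.69 to 6.93 in ES21 to ES24, and 6.30 and 6.55 in ES25 and ES26. In ES1 to ES12 it was 6.09 to 6.58, and in ES13 and ES14 7.60 and 9.80. Of 12 pluripotency genes 10 were lower and 0 higher, with Dppa5a (-4.91 ± 0.66), Tdgf1 (-4.11 ± 0.80), Zfp42 (-3.99 ± 0.64) and Utf1 (-3.96 ± 0.67). Of 12 fibroblast genes 11 were lower and 1 higher, with Fn1 (-4.69 ± 0.62), Prrx1 (-4.64 ± 0.45), Col1a2 (-4.03 ± 0.36) and Postn (-4.02 ± 0.78). The counts of these 3 lists were the same without ES13 and ES14, with 7, 10 and 11 lower, beside 25.2% of all genes.

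The genes whose values followed each member most closely over the 26 arrays are given as a description, since the arrays share a common split between ES1 to ES12 and the rest. Spi1 was most like Fes, a tyrosine kinase of myeloid cells (r = 0.99), the G protein gene Gna15 (0.99) and the receptor gene Adgrg3 (0.99). Cebpa was most like Dgkg (0.97), Rab44 (0.96) and Slc28a2 (0.96), Cebpb most like Rgs19 (0.98), Sharpin (0.98) and Atp8b4 (0.97), and Cebpe most like the myeloid lectin gene Clec12a, Gpr141 and the prostacyclin receptor gene Ptgir (0.98 each). Gfi1 was most like Ctsg, the DNA repair gene Xpc and Ms4a3 (0.98 each), and Myb most like Coro2a (0.97), Mfsd13a (0.97) and Xpc (0.97). Irf8 was most like the macrophage growth factor receptor Csf1r (0.96), Ms4a6c (0.95) and the cytokine gene Tnf (0.94). Ikzf1 was most like Rassf2, the blood factor gene Lyl1 and Rreb1 (0.98 each). The likeness was lower for Ikzf2, with the interleukin receptor gene Il2ra (0.88), Slc24a3 (0.88) and Mrgpra4 (0.86), and for Myc, with Fam185a (0.89), Nek4 (0.88) and the spermidine synthase gene Srm (0.87), which is also in the Myc target list. Csf1r was 8.68 to 10.57 in ES1 to ES12, 5.65 to 6.00 in ES13 and ES14, 6.49 to 9.02 in ES15 to ES20 and 6.02 to 6.56 in ES21 to ES26, so that it overlapped between ES1 to ES12 and ES15 to ES20 as Irf8 did.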

How the data were processed

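RNA of 26 mouse samples was measured on 1-colour exon arrays. Per the labels' protocols, RNA came from a column kit used with an RNase inhibitor, was treated with DNase, amplified in 2 rounds and turned into labelled cDNA. Per the labels, the authors deposited log2 values per probe set made with RMA in Affymetrix Expression Console at the extended exon level. Neither the version of that program nor the genome build is given in the sources used here. The RMA method corrects background, normalizes arrays to a common distribution and summarises probes. Base 2 follows the convention of RMA and fits the range of values, 0.831 to 15.6 over 631748 probe sets. No detection calls were used, so low values may be background. Arrays have no read depth, and their number limits the precision.

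Symbols came from the platform annotation (306069 probe sets with 1 symbol, 6067 with several, 319612 with none), and 3725 of 21757 were updated through the RefSeq gene table of GRCm38.p6. A gene value is the median of the brighter 50% (rounded up) of its probe sets by mean over all arrays, for 18341 genes with at least 4 probe sets. Strain differences, always 129S2/SvPas minus C57BL/6, were tested in R 4.3.3 with limma 3.58.1 (lmFit, eBayes with a trend, two-sided, Benjamini-Hochberg, threshold 0.05) over all genes. Probe sets were tested one by one, and within genes against a minimum difference of 1. Correlations used 100000 permutations. The steps were tested on simulated data. No label gives a batch or date and the strain follows the title order, so batch and strain cannot be told apart. Without ES13 and ES14, all arrays labelled 129S2/SvPas and none labelled C57BL/6 had high neutrophil marker means. Strain and cell content then cannot be told apart either. No label says whether samples came from separate cultures or animals, and the p-values then reflect sample-to-sample spread alone, which may be technical.

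The members, the 20 gene lists, the title runs and the alternatives were chosen with earlier results of these data known. Named genes are the 10 members, in each list the largest differences among called genes, at most 4, the 3 genes most correlated with each member, and member probe sets that depart from their gene or, where none passed, the largest departure. Outside this rule, and chosen after their values were seen, are Cebpg, Ddit3 and Gfi1b among the relatives, and the genes most like and most opposed to Ikzf2 within ES1 to ES12. Cd14, Cd68, Msr1 and Fcgr1 are named only as genes shared between lists. Of the 10 genes, 6 matched a RefSeq promoter, and Spi1, Cebpe, Ikzf2 and Myc are named only. Alternatives changed the gene summary, filters, normalization, the fit, the threshold and the arrays, and each array was left out in turn.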

Additional observations from a re-analysis of the deposited data

Results flagged for a closer look

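Of 20 sets of values tested for a stray array (10 genes in ES15 to ES20 and in ES21 to ES24), 4 held an array far from the others by Dixon's criterion, where chance gives about 1 in 20. Cebpa was 7.723 in ES16, below the other 5 arrays of ES15 to ES20, and 8.189 in ES24, above the other 3 arrays of ES21 to ES24. Cebpb was 8.334 in ES22, above ES21, ES23 and ES24, and close to its values in ES25 and ES26. Ikzf1 was 4.539 in ES23, below the other 3 arrays of its run. These runs follow the titles and are no groups of the labels.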

How the results depend on the processing

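Under 11 alternative settings the number of members called higher lay between 8 and 10, and leaving out each array in turn gave the same range, with 0 called lower throughout. The members were kept under the filters on probe set number and on dim genes, which therefore could not remove them. Ikzf2 was not called at a threshold of 0.01, and Myc was called with array weights (0.54, limma adjusted p = 0.0219). No member changed direction. Without dim genes 2077 of 9171 genes tested were lower by strain label and 2764 higher. With them, 4055 of 18341 were lower and 3876 higher, so the counts come from unlike numbers of genes. Centring arrays on their median moved the share of calls that were higher to 66%, against 48.9%. Probe sets within genes numbered 1029, and 36294 with no minimum difference, 2414 with no filter on dim probe sets and 3461 without ES13 and ES14; member probe sets numbered 8, and 58, 14 and 19. The causes were not tested, apart from the lower minimum, the larger number tested and the fewer arrays that define these settings. Counts of called genes moved most in the mast cell, basophil and eosinophil list (6 to 13), the monocyte and macrophage list (8 to 15), the Myc target list (4 to 11) and the pluripotency list (4 to 11), while PU.1 target genes lay between 14 and 19. A minimum of 8 probe sets leaves fewer list genes to test. Over the alternatives the difference of Cebpe lay between 2.17 and 3.90, of Cebpa between 1.23 and 2.10 of Spi1 between 3.00 and 4.02, and of Myb between 2.64 and 4.06. No paired analysis was possible because the labels give the strains no shared replicate numbers. Flat probe sets enter the gene values of Spi1, Cebpe, Irf8 and Myb, and the files give no signal over background by which dim probe sets could be judged.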
